A study of Rattus norvegicus with 30 samples.

Results

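Lrpprc and Slirp are the 2 genes described here, 2 of the 14217 genes that had a probe set of their symbol alone. A probe set is the group of short probes on the array that reads 1 transcript. Every probe set annotated to either symbol and to no other gene was taken, which gave 5 of the 31042 probe sets tested, with 3 for Lrpprc (1373500_at, 1395338_at and 1381466_at) and 2 for Slirp (1373387_at and 1385418_at). The pair was chosen with its results on these arrays known, since Lrpprc had been called higher after 4 days and Slirp lower after 1 day, so its group differences are given as description and without a test.

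Total RNA of the left liver lobe was hybridised to Affymetrix rat genome arrays, 1 array per rat, from 30 female Sprague-Dawley rats aged 10 weeks. The groups were 10 rats handled for 4 days, 10 rats handled for 1 day and 10 control rats that were left unhandled, all of them separate animals of an outbred strain. Handling meant daily removal from the cage, weighing, restraint and water by oral gavage, with serial tail vein bleeds on the last day of handling. Necropsy fell on day 5 for the 4-day rats and on day 2 for the 1-day rats and controls, with no unhandled rats on day 5, so handling and day of necropsy cannot be told apart for the 4-day rats.

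LRPPRC is a large protein of pentatricopeptide repeats, a repeat that binds RNA, and SLIRP is a small protein with a single RNA recognition motif. They form a complex in the mitochondrial matrix that holds mRNAs made from mitochondrial DNA in an unfolded state, keeps them from decay and promotes their polyadenylation and translation. Loss of LRPPRC in mouse tissues lowers most mRNAs of mitochondrial DNA, and SLIRP protein falls with it, while mutations of human LRPPRC cause the French-Canadian form of Leigh syndrome, a cytochrome c oxidase deficiency that affects liver and brain.

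Both genes lie on chromosome 6 of the rat assembly GRCr8, and their start regions are shown because the results below turn on whether the pair varied together. Each line holds 250 bases before and 50 bases from the RefSeq transcription start, on the plus strand, at chr6:15612388-15612687 for Lrpprc and chr6:112819434-112819733 for Slirp. Capitals mark matches to 3 motifs searched on both strands, the E-box CACGTG, the YY1 core CCGCCAT and the ETS core CCGGAAG.
Lrpprc: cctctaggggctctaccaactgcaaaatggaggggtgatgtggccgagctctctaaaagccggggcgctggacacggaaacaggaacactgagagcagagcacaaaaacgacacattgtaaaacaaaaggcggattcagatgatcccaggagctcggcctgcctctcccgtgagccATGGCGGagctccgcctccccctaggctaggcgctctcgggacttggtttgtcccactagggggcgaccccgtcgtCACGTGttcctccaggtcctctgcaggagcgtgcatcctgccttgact
Slirp: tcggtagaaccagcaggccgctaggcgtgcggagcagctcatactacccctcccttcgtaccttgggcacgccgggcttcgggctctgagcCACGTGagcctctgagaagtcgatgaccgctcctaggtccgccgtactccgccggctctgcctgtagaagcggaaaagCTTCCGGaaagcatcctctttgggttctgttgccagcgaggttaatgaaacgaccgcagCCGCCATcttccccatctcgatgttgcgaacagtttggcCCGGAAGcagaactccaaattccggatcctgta
The E-box began at base 3 from the start in Lrpprc and at base -159 in Slirp, and 6.42% of 33469 rat promoters of this length held one. The YY1 core began at base -74 in Lrpprc, on the minus strand, and at base -22 in Slirp, against 4.80% of promoters, and 0.532% of promoters held both motifs. The ETS core was found at bases -81 and 18 in Slirp and at no place in the Lrpprc window, against 8.75% of promoters. No window held the NRF1 consensus, which 4.25% of promoters held, or the ERR site TNAAGGTCA, which 1.20% held. These matches describe the letters in these windows only.

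Intensities were scaled so that each array averaged 1.01, and array medians lay between 0.118 and 0.125. Control rats 1, 2 and 3 stood apart from the other animals: in 2.95% of probe sets all 3 lay above all 27 other rats, and in 3.03% all 3 lay below them. The Gapdh ratio, which sets a control probe set at the 3′ end against one at the 5′ end as a sign of RNA integrity and labelling, was 0.70 to 0.96 on the log2 scale in the 4-day rats, 0.66 to 0.83 in the 1-day rats and 0.55 to 0.70 in the controls, with 10 of 10 and 7 of 10 handled rats above every control. Of 6 hepatocyte markers 5 were measured, and their summed intensity was 247 to 283 in 4-day rats, 248 to 276 in 1-day rats and 244 to 278 in controls. Markers of other cells summed to at most 11.8, 14.1 and 15.5 for Kupffer cells and 0.580, 0.596 and 0.679 for T and NK cells in the 4-day, 1-day and control groups. Median sums in the same groups were 9.97, 12.6 and 11.5 for Kupffer cells, 0.489, 0.556 and 0.531 for T and NK cells, 7.46, 8.17 and 7.55 for sinusoidal endothelium, 20.2, 20.4 and 15.8 for erythroid cells, 3.61, 3.83 and 3.50 for stellate cells and 0.540, 0.586 and 0.734 for bile duct. Of the 5 T and NK markers 3 were below and 2 above control after 4 days, with log2 differences from -0.42 to 0.27. The lowest was Nkg7 (limma adjusted p = 0.0902), and no other marker of any cell type was called after 4 days or 1 day. The part of these cells in the results was not tested.

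The brightest Lrpprc probe set, 1373500_at, lay at percentile 92.4 of mean log2 intensity and its values overlapped between the handled groups and the controls. Its intensity was lowest at 1.83, median 2.57 and highest at 3.16 in the 4-day rats. In the 1-day rats it was 2.23, 2.53 and 3.02, and in the controls 1.39, 2.43 and 3.08. The 3 groups overlapped throughout, and the controls reached lowest. Of the controls, rats 1, 2 and 3 gave 1.96, 1.39 and 1.96, below the 2.34 to 3.08 of control rats 4 to 10. Only control rat 2 lay below all 27 rats other than these 3, since the lowest 4-day rat was at 1.83.

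The log2 difference of 1373500_at from control was 0.11 (SE 0.11) after 4 days and 0.14 (SE 0.11) after 1 day, with n = 10 in each group. Both differences changed sign without control rats 1 to 3, to -0.06 (SE 0.09) after 4 days and -0.03 (SE 0.09) after 1 day. Between 4-day and 1-day rats it was -0.03 (SE 0.11). The order of the group means, 1 day, 4 days and control, thus had no neighbours further apart than their spread. Whatever the group, these are levels in bulk liver, in which fewer cells of a type and less RNA per cell cannot be told apart.

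The second Lrpprc probe set, 1395338_at, carried the difference that brought Lrpprc to notice. It was dim, at percentile 50.7 of mean intensity and below its own array's median on 16 of 30 arrays. Its intensity was lowest at 0.127, median 0.153 and highest at 0.178 in the 4-day rats. In the 1-day rats the values were 0.101, 0.115 and 0.215, and in the controls 0.0681, 0.0966 and 0.113. All 10 of the 4-day rats lay above the highest control, which was so for 0.0226% of all probe sets tested. Of the 1-day rats 6 of 10 did, and the share of probe sets with as many was not counted.

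On the log2 scale 1395338_at was 0.68 (SE 0.12) higher after 4 days than in controls, a 1.60-fold difference, and 0.47 (SE 0.12) higher after 1 day. The 4-day rats were 0.21 (SE 0.12) above the 1-day rats, but no 4-day rat exceeded the highest 1-day rat. In linear units the means were 0.150 ± 0.0171 in 4-day rats, 0.133 ± 0.0363 in 1-day rats and 0.0941 ± 0.0139 in controls (SD, n = 10 each), so the 4-day mean was 0.0560 above control on an array that averages 1.01. Leaving out control rats 1 to 3 hardly moved the differences, to 0.65 (SE 0.13) after 4 days and 0.45 (SE 0.13) after 1 day.

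The third Lrpprc probe set, 1381466_at, was dimmer still, at percentile 44.2 and below the median of its array on 27 of 30 arrays. It read 0.0634 to 0.111 with a median of 0.0840 in the 4-day rats, 0.0655 to 0.139 with a median of 0.0957 in the 1-day rats, and 0.0735 to 0.111 with a median of 0.0914 in the controls. The ranges of the groups overlapped. The log2 differences were -0.11 (SE 0.13) after 4 days and 0.07 (SE 0.13) after 1 day, and -0.16 (SE 0.14) and 0.02 (SE 0.14) without control rats 1 to 3. Only 1395338_at of the 3 Lrpprc probe sets therefore had a 4-day difference beyond the spread of the rats. Where each probe set lies in the transcript is not given in the sources used here.

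**Figure D1:**
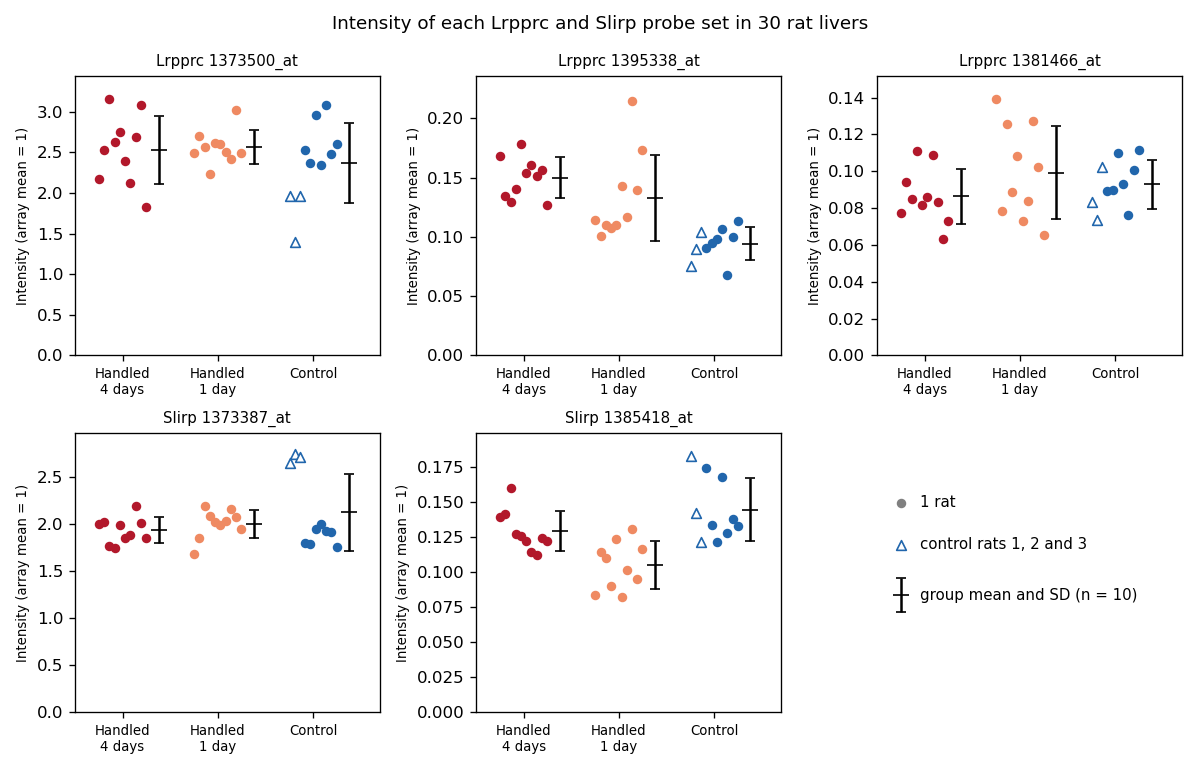
Intensity of the 3 Lrpprc and 2 Slirp probe sets, 1 point per rat, for rats handled 4 days, handled 1 day and controls, with the group mean and SD (n = 10) and control rats 1, 2 and 3 as open triangles. The 10 rats handled for 4 days lie above all controls in Lrpprc 1395338_at, and the 3 triangles lie above all other rats in Slirp 1373387_at.

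For Slirp, the bright probe set 1373387_at lay at percentile 91.0. Its lowest, median and highest intensity were 1.75, 1.94 and 2.19 in the 4-day rats, 1.68, 2.03 and 2.19 in the 1-day rats and 1.75, 1.94 and 2.75 in the controls. The medians of the groups were close together, and the upper end of the controls came from rats 1, 2 and 3, at 2.65, 2.75 and 2.71. Those 3 rats were above all 27 other rats, whose values ran from 1.68 to 2.19.

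The log2 difference of 1373387_at was -0.12 (SE 0.08) after 4 days and -0.07 (SE 0.08) after 1 day. With control rats 1 to 3 left out it was 0.04 (SE 0.06) after 4 days and 0.09 (SE 0.06) after 1 day, so both changed sign here too. The 4-day rats differed from the 1-day rats by -0.05 (SE 0.08). None of these exceeded 2 standard errors.

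The dim Slirp probe set, 1385418_at, carried the 1-day difference for which Slirp was chosen. It lay at percentile 51.1, and 13 of 30 arrays gave it less than their median. The lowest, median and highest intensity were 0.113, 0.125 and 0.160 in the 4-day rats, 0.0822, 0.106 and 0.131 in the 1-day rats and 0.121, 0.136 and 0.183 in the controls. Of the 1-day rats 8 of 10 lay below every control, and of the 4-day rats 2 of 10 did. The share of all probe sets with as many rats below every control was not counted, so these counts describe this probe set only.

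The 1-day rats were lower than controls in 1385418_at by a log2 difference of -0.46 (SE 0.09), 1.38-fold. After 4 days the difference from control was -0.15 (SE 0.09), and the 4-day rats were 0.31 (SE 0.09) above the 1-day rats, with 10 of 10 above the 1-day mean. Linear means were 0.129 ± 0.0143 in 4-day rats, 0.105 ± 0.0170 in 1-day rats and 0.144 ± 0.0225 in controls (SD, n = 10 each). Without control rats 1 to 3 the differences from control were -0.14 (SE 0.10) after 4 days and -0.45 (SE 0.10) after 1 day. RefSeq holds a Slirp pseudogene, Slirp-ps1, on chromosome 10, and whether either Slirp probe set also reads it was not tested.

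In the fit over all probe sets by limma with Benjamini-Hochberg adjustment, a call needed an adjusted p below 0.1. Lrpprc 1395338_at was called after 4 days, where 0.657% of probe sets were called and 0.287% as higher, and Slirp 1385418_at after 1 day, where 0.0902% were called and 0.0387% as lower. The remaining values of the 5 probe sets against control were not called, although Lrpprc 1395338_at was also called after 1 day with the dimmest 40% of probe sets left out, and no probe set of the array was called between 4 days and 1 day (0%). Both calls remained without control rats 1 to 3, where 0.828% of probe sets were called after 4 days and 0.329% after 1 day. The Slirp call was lost in 8 of 30 fits without 1 rat, those without control rat 1 or 4 or 1-day rat 1, 2, 4, 6, 7 or 9, and in 3 of 11 other settings, the fit of 1-day and control rats alone, the replicate block and the Gapdh ratio as a covariate. These calls are the values that chose the pair. Both called probe sets, at percentiles 50.7 and 51.1, lay just above the median mean intensity. Among probe sets above that median 1.08% were called after 4 days and 0.155% after 1 day, against 0.232% and 0.0258% among the others.

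The Gapdh ratio differed between the groups as given above, and its relation to the 5 probe sets within groups was taken over the 27 rats other than control rats 1 to 3. Its correlation with intensity, after subtraction of group means, was -0.01 for Lrpprc 1395338_at and 0.03 for Slirp 1385418_at. For the bright probe sets it was 0.33 for Lrpprc 1373500_at and -0.32 for Slirp 1373387_at. With the ratio as a covariate the differences were 0.70 for Lrpprc 1395338_at after 4 days and -0.49 for Slirp 1385418_at after 1 day. In that fit neither was called, and the calls over the whole array were 5 after 4 days and 0 after 1 day, against 204 and 28 without the covariate.

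**Figure D2:**
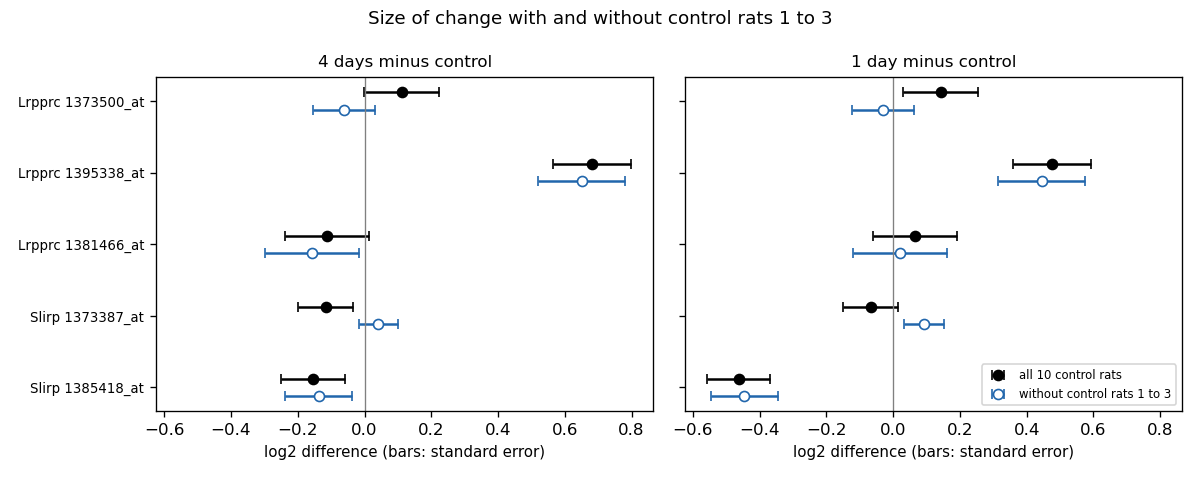
Log2 difference from control of each Lrpprc and Slirp probe set after 4 days and after 1 day, with all 10 control rats (filled) and without control rats 1 to 3 (open). Bars are the standard error, and the bright probe sets 1373500_at and 1373387_at cross 0 when the 3 control rats are left out.

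Control rats 1 to 3 separated the bright probe sets of the 2 genes in opposite directions. Compared with control rats 4 to 10, Lrpprc 1373500_at was lower by a log2 difference of -0.58, and Slirp 1373387_at was higher by 0.53. In absolute size these lay at percentiles 84.1 and 81.3 of all probe sets. The dim probe sets differed little between these rats, by -0.10 for Lrpprc 1395338_at, -0.15 for Lrpprc 1381466_at and 0.06 for Slirp 1385418_at.

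The relation of the 2 genes across rats was examined with their bright probe sets, within groups or after subtraction of group means. Over the 10 control rats Pearson's r was -0.81 (permutation p = 0.00478, adjusted p = 0.0717 over 15 relations) and Spearman's rho was -0.67 (permutation p = 0.0391, adjusted p = 0.293). The control rats fell into 2 clusters, so this value is one between clusters. In control rats 4 to 10 r was 0.23 (exact permutation p = 0.581) and rho -0.04 (exact permutation p = 0.963), and r was -0.62 without the 2 rats farthest from the median of Lrpprc.

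In the handled rats no relation was detectable, with r = 0.08 and rho = 0.07 after 4 days (permutation p = 0.834 and 0.864) and r = -0.06 and rho = -0.21 after 1 day (permutation p = 0.855 and 0.557). Without the 2 farthest rats r was 0.27 after 4 days and -0.18 after 1 day. Over all 30 rats, centred on group means, r was -0.54 (permutation p = 0.0114, adjusted p = 0.0856) and rho was -0.47 (permutation p = 0.0173, adjusted p = 0.260). Over the 27 rats without control rats 1 to 3, r was 0.06 (permutation p = 0.784) and rho 0.03 (permutation p = 0.885). The inverse relation of Lrpprc and Slirp thus rested on 3 animals.

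Probe sets of the same gene did not follow each other either. Over the 27 rats r was -0.11 between Lrpprc 1373500_at and 1395338_at, -0.08 between 1373500_at and 1381466_at and 0.08 between 1395338_at and 1381466_at. The Slirp probe sets 1373387_at and 1385418_at gave r = 0.09. Each of these pairs held a dim probe set, so noise near background and a true difference between probe sets cannot be told apart. The remaining pairs, each of a Lrpprc with a Slirp probe set, ran from -0.12 to 0.24, and the adjusted permutation p was 0.986 for every one of these 9 pairs and for the bright pair over the same rats.

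**Figure D3:**
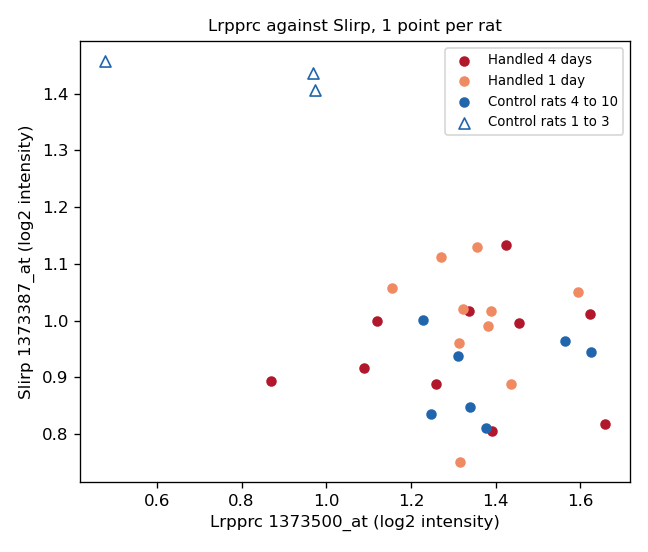
Log2 intensity of the bright Slirp probe set 1373387_at (y axis) against the bright Lrpprc probe set 1373500_at (x axis), 1 point per rat. Control rats 1 to 3 (triangles) lie at the upper left, apart from the 27 other rats, over which r was 0.06 after group means were subtracted.

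Among 9375 genes with a probe set brighter than the median, those most like Lrpprc 1373500_at over the 30 centred arrays were Sds, serine dehydratase, at r = 0.79, Sucla2, a subunit of succinyl-CoA ligase of the citric acid cycle, at 0.78, the ubiquitin ligase gene Rnf169 at 0.78, Phyh, phytanoyl-CoA hydroxylase of peroxisomes, at 0.78, and Asl, argininosuccinate lyase of the urea cycle, at 0.77. Over the 27 rats their r was 0.69, 0.65, 0.68, 0.61 and 0.53, and their ranks were 1, 5, 2, 11 and 54, in the same order. Slirp itself ranked 8938 over 30 rats and 4012 over 27.

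Most like Slirp 1373387_at were Chid1 at 0.89, Ppp1r14a, an inhibitor of myosin phosphatase, at 0.89, Tmem53 at 0.88, Pygl, liver glycogen phosphorylase, at 0.88 and Mrpl39, a protein of the mitochondrial ribosome, at 0.88. Over the 27 rats their r was 0.57, 0.65, 0.57, 0.60 and 0.71, and their ranks were 82, 18, 68, 49 and 5. The order over 30 rats thus depended on control rats 1 to 3. Lrpprc ranked 8429 over 30 rats and 4121 over 27. All values in these rankings come from the same arrays and share their scaling, and they are descriptions.

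The complex acts on mRNAs of mitochondrial DNA, of which 2 of 13 had a probe set of their own, COX1 and COX2, subunits of cytochrome c oxidase. COX1 (1389956_a_at) was lowest at 46.4, median 65.9 and highest at 71.3 in 4-day rats, 42.3, 65.4 and 73.7 in 1-day rats and 44.6, 66.2 and 75.2 in controls. COX2 (1375107_at) was 56.6, 65.9 and 67.8 in 4-day rats, 50.8, 64.6 and 66.7 in 1-day rats and 51.5, 63.6 and 73.2 in controls. The groups overlapped in both mRNAs.

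COX1 differed from control by a log2 difference of -0.00 after 4 days (SE 0.10, 95% interval -0.21 to 0.20, limma adjusted p = 0.993) and by -0.08 after 1 day (SE 0.10, interval -0.29 to 0.12, adjusted p = 0.838). COX2 differed by 0.03 after 4 days (SE 0.06, interval -0.10 to 0.16, adjusted p = 0.903) and by -0.05 after 1 day (SE 0.06, interval -0.18 to 0.09, adjusted p = 0.863). Neither passed the test. These probe sets ranked 10 and 12 of 31042 in mean log2 intensity, near the highest value of any array, 83.2, and whether their signal is compressed there was not tested, so the intervals bound differences in intensity and not in mRNA. Without control rats 1 to 3 the log2 differences were 0.05 and -0.03 for COX1 and 0.07 and -0.01 for COX2, after 4 days and after 1 day.

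COX1 and COX2 varied together across rats, with r = 0.91 over 30 rats. Rat 8 of the 4-day group, rats 4, 6 and 10 of the 1-day group and rat 8 of the controls were low in both, at 42.3 to 50.2 for COX1 and 50.8 to 56.6 for COX2. The other 25 rats ran from 62.2 to 75.2 for COX1 and from 59.5 to 73.2 for COX2, and r was 0.66 over them. In the 5 low rats the bright Lrpprc probe set read 2.68, 2.23, 2.60, 2.49 and 3.08, and the bright Slirp probe set 2.19, 2.08, 1.99, 1.95 and 1.92, in the order in which the rats are named. All of these lay inside the range of the other 25 rats, which include control rats 1 to 3 with values down to 1.39 for Lrpprc and up to 2.75 for Slirp. Of the dim probe sets, Lrpprc 1395338_at reached 0.0681 in the low rats against a lowest of 0.0751 in the others. Slirp 1385418_at reached 0.0822 against 0.0839.

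Over the 22 rats that were neither low in both mRNAs nor control rats 1 to 3, the bright Lrpprc and Slirp probe sets showed no detectable relation to either mRNA after subtraction of group means. For Lrpprc 1373500_at r was 0.10 with COX1 and -0.04 with COX2, and rho was 0.08 and -0.05. For Slirp 1373387_at r was -0.38 with COX1 and -0.28 with COX2, and rho was -0.26 and -0.24. The permutation p adjusted over these 4 relations was 0.303 to 0.863 for r and 0.552 to 0.829 for rho. Without the 2 farthest rats r was -0.08 and -0.08 for Lrpprc and -0.21 and -0.51 for Slirp. The low rats were left out by their values of COX1 and COX2 themselves, which narrowed the range of both mRNAs. Relations over rats that include them were not tested, so the lack of a relation holds for the narrowed range only. The 4 relations were chosen after the values had been seen.

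**Figure D4:**
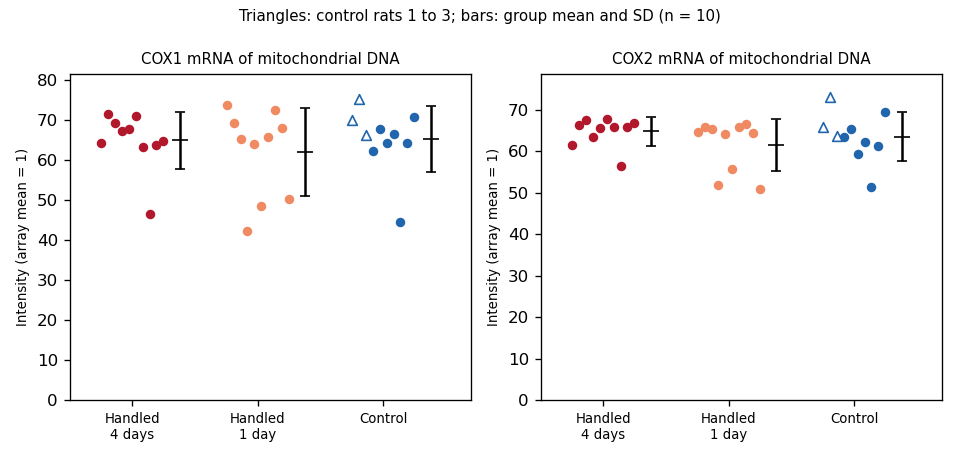
Intensity of the COX1 and COX2 mRNAs of mitochondrial DNA, 1 point per rat, with the mean and SD of each group of 10 and control rats 1 to 3 as triangles. The groups overlap, and 1 4-day rat, 3 1-day rats and 1 control rat lie low in both panels.

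The other genes of mitochondrial RNA and of cytochrome c oxidase were described in 11 lists, 155 genes in all, each by its brightest probe set. None of these 155 genes passed limma's test at an adjusted p below 0.1 after 4 days or after 1 day. Of all probe sets 0.657% passed after 4 days and 0.0902% after 1 day. At shares this small the absence of calls does not set the lists apart from the array. At an unadjusted p below 0.05 the share over the whole array was 11.3% of probe sets after 4 days and 9.33% after 1 day, and the median log2 difference of all probe sets was 0.00 after both. Without control rats 1 to 3, 1 gene of the lists was called after 4 days, the mitochondrial ribosomal protein gene Mrps25 at a log2 difference of -0.20 (adjusted p = 0.0718).

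None of the genes that make or process mitochondrial transcripts was called. Of the 9 transcription genes 6 were above and 3 below control after 4 days, with a median of 0.04, and 5 and 4 after 1 day, with a median of 0.02 and single genes from -0.26 to 0.31. Mterf1, a terminator-binding factor of mitochondrial DNA, had 0.14 after 4 days (SE 0.07, adjusted p = 0.449) and 0.20 after 1 day (SE 0.07, adjusted p = 0.372). Its control rats 1 to 3, at 0.792 to 0.850, lay below all 27 other rats, and with them left out the differences were 0.04 and 0.09. Tfb1m, the methyltransferase of the small ribosomal RNA, had -0.23 (SE 0.12, adjusted p = 0.473) and -0.26 (SE 0.12, adjusted p = 0.493). The 12 measured processing genes split 6 to 6 after 4 days, and the pentatricopeptide gene Ptcd1 had -0.18 (SE 0.09, adjusted p = 0.435).

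The 5 genes of polyadenylation and decay, which act on the same RNAs as the complex, were below control in both comparisons with all control rats, with medians of -0.10 after 4 days and -0.07 after 1 day. With control rats 1 to 3 left out, 3 of 5 were below control after 4 days and 4 of 5 after 1 day, with medians of -0.03 and -0.04. Supv3l1, the helicase of the mitochondrial degradosome, had -0.22 after 4 days (SE 0.06, adjusted p = 0.127) and -0.23 after 1 day (SE 0.06, adjusted p = 0.209). Pde12, which trims poly(A) tails, had -0.29 after 4 days (SE 0.16, adjusted p = 0.520), but it was dim, below the median of its array on 27 of 30 arrays. Pnpt1, the ribonuclease partner of Supv3l1, had -0.07 after 1 day (SE 0.07, adjusted p = 0.777), or -0.01 without those 3 rats. Mtpap, the mitochondrial poly(A) polymerase, had -0.02 after 4 days (adjusted p = 0.927) and -0.05 after 1 day (adjusted p = 0.856), and without those rats 0.04 and 0.01.

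The 73 mitochondrial ribosomal protein genes lay mostly on 1 side, with 61 below and 12 above control after 4 days and 60 below and 13 above after 1 day. Their median was -0.06 in both comparisons, and 13 and 12 of them had an unadjusted p below 0.05. Of all 9376 genes with a probe set brighter than the median, 54.8% were below control after 4 days and 55.7% after 1 day. Mrpl2 of the large subunit had -0.28 after 4 days (SE 0.08, adjusted p = 0.112) and -0.28 after 1 day (SE 0.08, adjusted p = 0.205). Mrps28 had -0.29 after 1 day (SE 0.10, adjusted p = 0.341), or -0.12 without control rats 1 to 3, which lay above all 27 other rats, and Mrpl17 had -0.13 after 4 days (SE 0.05, adjusted p = 0.242). Without control rats 1 to 3 the split was 49 below and 24 above in both comparisons, with a median of -0.02. In that fit 50.8% of all probe sets, bright and dim, were below control after 4 days and 52.2% after 1 day. The share among bright genes alone was not counted in that fit, so these shares and those of the 9376 genes are not alike. The size of the shift in the ribosomal protein genes thus moved with the same 3 animals as the bright Lrpprc and Slirp probe sets. Their part in it was measured by leaving them out and no further.

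Among 10 nuclear subunits of cytochrome c oxidase 7 were below control after both 4 days and 1 day, with medians of -0.01 and -0.02. With control rats 1 to 3 left out 4 of 10 were below control after 4 days and 5 of 10 after 1 day, with medians of 0.01 and 0.01. Cox6a1 had -0.16 after 4 days (SE 0.05, adjusted p = 0.222) and -0.12 after 1 day (SE 0.05, adjusted p = 0.493), or -0.12 and -0.08 without those rats. Of 16 assembly genes 9 were below control after 4 days and 8 after 1 day, and 7 and 9 without those rats. The copper chaperone gene Cox17 had -0.15 (SE 0.06, adjusted p = 0.319) and Coa5 0.13 (SE 0.05, adjusted p = 0.336) after 4 days, or -0.19 and 0.08 without them. The 11 measured translation factors had medians of -0.02 after 4 days and -0.07 after 1 day, and Tufm, the elongation factor, had -0.11 after 1 day (SE 0.06, adjusted p = 0.612). In Tufm control rats 1 to 3, at 3.25 to 3.62, lay above all 27 other rats, and the difference was -0.03 without them.

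None of the 8 regulators of nuclear genes for mitochondria was called. Pprc1, a PGC-1-related coactivator, had 0.50 after 4 days (SE 0.27, adjusted p = 0.485) and 0.40 after 1 day (SE 0.27, adjusted p = 0.677) with all controls, and -0.11 and -0.21 without those 3 rats. Pprc1 read 0.0953 to 0.102 in control rats 1 to 3 and 0.358 to 0.430 in control rats 4 to 10. The log2 difference between them was -2.05, but its size is uncertain, since the low values lay below the array medians and are not known to be above background. In the same contrast Ppargc1b had -0.96, Ppargc1a, encoding PGC-1 alpha, -0.81, Nrf1 -0.53, Yy1 -0.32, Gabpa -0.23, Esrra -0.09 and Gabpb1 0.13. The median of the 8 regulators was 0.07 after 4 days and 0.06 after 1 day with all controls, and -0.08 and -0.16 without them. Esrra, the estrogen-related receptor alpha, had -0.19 after 4 days (SE 0.10, adjusted p = 0.503) and -0.26 after 1 day (SE 0.10, adjusted p = 0.440), and -0.21 and -0.28 without control rats 1 to 3.

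Of 5 other partners of LRPPRC or SLIRP, Uxt, which binds LRPPRC in human cells, had -0.23 after 4 days (SE 0.07, adjusted p = 0.174) and -0.12 after 1 day (SE 0.07, adjusted p = 0.635). Eif4e, the cap-binding protein, had -0.09 after 4 days (SE 0.06, adjusted p = 0.617) and -0.17 after 1 day (SE 0.06, adjusted p = 0.391), or -0.02 and -0.10 without control rats 1 to 3. For mitochondrial content, the outer membrane channel gene Vdac1 had -0.17 after 4 days (SE 0.08, adjusted p = 0.372) and -0.12 after 1 day (SE 0.08, adjusted p = 0.642), and the import receptor gene Tomm20 had 0.17 (SE 0.08, adjusted p = 0.465) and 0.13 (SE 0.08, adjusted p = 0.662). Tomm20 was 2.43 to 2.69 in control rats 1 to 3, below the lowest of the 27 other rats at 3.32, and with these 3 left out its differences were 0.01 and -0.03. The 4 measured genes of this list had 2 above and 2 below control in both comparisons with all controls.

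**Figure D5:**
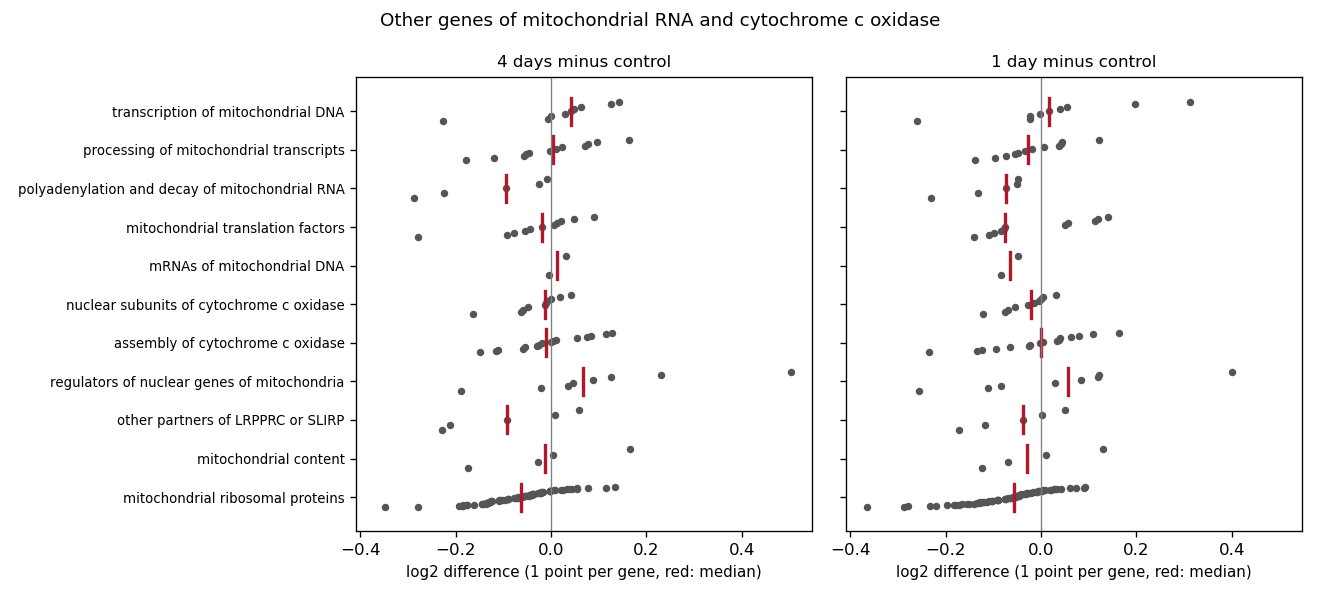
Log2 difference from control after 4 days and after 1 day of 155 genes in 11 lists, 1 point per gene at its brightest probe set, with the list median as a red line. The medians lie between -0.10 and 0.07, and none of the genes passed the test at an adjusted p below 0.1. Of all probe sets 0.657% passed after 4 days and 0.0902% after 1 day.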

How the data were processed

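RNA of 30 rat livers was labelled by a 3′ in vitro transcription method and read on 1 array per rat, and per the study's methods the arrays were processed in Rosetta Resolver. The authors deposited linear intensities of every probe set on every array, without detection calls. Their scaling to an array mean near 1 is read from the values. All 30 samples were grouped by the labels. The 57 Affymetrix controls among 31099 probe sets were dropped. Intensities were taken to log2 without an offset, and the 3 groups were fitted together with limma 3.58.1 (lmFit and eBayes, two-sided) in R 4.3.3, with Benjamini-Hochberg adjustment over 31042 probe sets. Means and SDs are over rats, whose number limits the precision. Correlations were tested with 100000 permutations, or exactly over 7 rats, in Python 3.11.15 with scipy 1.17.1. Probe sets were named through the platform annotation, 20826 of them with 1 symbol, 436 with several and 9780 with none. Promoters came from RefSeq on GRCr8. The pipeline was tested on simulated data. The members and lists were chosen with earlier results of these data known. In each list with no call, the 2 genes with the smallest p in a comparison could be named, and Mtpap, Mrps25, Ppargc1a, Ppargc1b, Nrf1, Yy1, Gabpb1 and Nkg7 were named after their values were seen. Alternatives were up to 15 other settings for a result, and each rat left out in turn. Over 30 same-numbered pairs of rats from different groups, the correlation of deviations was -0.0382 to 0.118, with a median of 0.0475, so no strong pairing by replicate number showed. Rats of different numbers were not compared, so a weak shared order was not tested. With a replicate block the calls over the array were 85 after 4 days and 2 after 1 day.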

Additional observations from a re-analysis of the deposited data

Results flagged for a closer look

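In 7 of the 105 sets of 10 rats examined, the lowest or highest rat lay far from the others. Its gap to the nearest rat, taken on log2 intensity as a share of the range, was above Dixon's 95% critical value. Chance does this in about 1 in 20 sets, and no Lrpprc or Slirp probe set was among the 7. Intensities below are linear, while the gaps are on the log2 scale. COX1 was low in rat 8 of the 4-day group, at 46.4 against 63.3 in the nearest rat (gap 0.722 of the range), and in rat 8 of the controls, at 44.6 against 62.2 (gap 0.637). Rat 6 of the 4-day group was lowest in Cox17, at 1.87 against 2.26 (gap 0.548), and in Cox7c, a nuclear subunit of cytochrome c oxidase, at 11.5 against 13.4 (gap 0.677). Rat 9 of the 4-day group was lowest in the initiation factor gene Mtif2, at 0.848 against 0.934 (gap 0.467). Control rat 3 was highest in Eif4e, at 2.75 against 2.32 (gap 0.474), and control rat 10 was lowest in Vdac1, at 5.03 against 6.47 (gap 0.524).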

How the results depend on the processing

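Most alternative values of the Lrpprc and Slirp log2 differences came from leaving out 1 rat, which moves a group mean little. Several other settings leave a difference unchanged by construction. A move of less than 1 SD between rats also covers the sign changes of the bright probe sets given below. Of 560 alternative values 555 moved by less than that, a count that is therefore no measure of robustness. The others came from offsets added before log2, which shrink differences of dim probe sets by construction: for Lrpprc 1395338_at 0.48 (offset 0.05) and 0.0720 (offset 1) after 4 days and 0.0501 (offset 1) after 1 day, and with an offset of 1 for Slirp 1385418_at -0.0505 after 1 day and 0.0312 for 4 days minus 1 day. Leaving out 1 rat gave 0.63 to 0.71 for Lrpprc 1395338_at after 4 days, called each time, and -0.50 to -0.42 for Slirp 1385418_at after 1 day, called in 22 of 30 cases. Both calls are the values that chose the pair, so their return in refits of nearly the same arrays is description and not a test. Lrpprc 1395338_at after 1 day, not called as reported, was called in 1 of 11 other settings, with the dimmest 40% left out. The Lrpprc call after 4 days was lost in 1 of 11 other settings, the Gapdh ratio as covariate. The Slirp call was lost with that covariate, with control and 1-day rats fitted alone and with a replicate block, in which its difference was -0.46 as before. With the replicate block Lrpprc 1395338_at kept 0.68 and its call, and 0 genes of the lists were called. The signs of the bright probe sets against control turned without control rats 1 to 3, and Slirp 1373387_at after 1 day in 1 further setting. The correlation of the bright probe sets over 30 centred rats was 0.0583 without control rats 1 to 3, against -0.54 with all rats, and was -0.58 to -0.45 in 3 other settings.

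For the 155 genes of the lists, with 0 called as reported, the calls after 1 day numbered 2 with the dimmest 40% of probe sets left out, 2 with an offset of 1, 1 by the methods' t-test and 2 at an unadjusted p below 0.001. After 4 days they numbered 3 with the dimmest 40% left out, 2 with an intensity trend, 2 with an offset of 0.05, 6 with an offset of 1, 1 with quantile normalization, 1 without control rats 1 to 3, 1 by the methods' t-test, 1 by the exact rank-sum test and 1 at an unadjusted p below 0.001. Leaving out 1 rat gave 0 to 2 calls after 4 days, with 1 without control rat 7, 1-day rat 3 or 4-day rat 7 and 2 without 4-day rat 9, and 0 after 1 day, and the cause was not tested. Both called Lrpprc and Slirp probe sets lie near the array median, where signal over background is not known, since no detection calls were used here. Counts of calls over the array, 204 after 4 days and 28 after 1 day as reported, were 490 and 113 with the dimmest 40% left out, 467 and 127 with an offset of 1, 27 and 1 with only the 2 groups compared, and 5 and 0 with the Gapdh ratio.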
